A study of Mus musculus with 30 samples.

Results

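Arrays of mouse small intestine were compared to ask whether losing Myc on top of Rb1 changed a gene by the same amount in villi as in crypts. The comparison uses 20 of the 30 arrays of the series, chosen by their titles: 5 Rb KO villus arrays, 5 Rb/Myc DKO villus arrays, 5 Rb KO crypt arrays and 5 Rb/Myc DKO crypt arrays. All the mice were adults aged 2 months, and tissue was taken 5 days after ablation. Rb KO mice had lost Rb1, the gene of the retinoblastoma protein, and Rb/Myc DKO mice (DKO below) had lost Rb1 and Myc. Both deletions were driven by Ah-cre, an inducible Cre transgene of the intestine. The loss of Rb1 is thus shared by every array compared here, and the groups differ by label in Myc. In some genes a control also stood with the Rb KO animals, as given below, and what sets these apart was not tested. Of the 14548 genes tested, 1326 (9.11%) had an effect of Myc loss that differed between villi and crypts.

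Myc is a transcription factor that pairs with Max at E-box sequences and is known for driving ribosome production, nucleotide synthesis and entry into the cell cycle. The retinoblastoma protein holds back the E2F factors, which switch on the genes of DNA synthesis and, with other complexes, those of mitosis. In the small intestine, stem cells and dividing progenitors fill the crypts, where Wnt signals keep Myc on, and their daughters differentiate as they move onto the villi to absorb nutrients.

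The quantity reported throughout is a difference of effects. The effect of Myc loss in a tissue is the DKO mean minus the Rb KO mean of that tissue in log2 units, and the difference of effects is the effect in villi minus the effect in crypts. A positive difference, called higher here, means that the change was more upward, or less downward, in villi. Villi and crypts with the same genotype and replicate number were treated as the same animal, so each value rests on the villus minus crypt values of 5 Rb KO and 5 DKO animals. Differences are given ± SE, and adjusted p-values come from limma with Benjamini-Hochberg adjustment over the 14548 genes, two-sided. Levels in villi and in crypts are not compared with each other beyond a check of markers, because the tissues carry the marks of separate normalization, with array medians of 6.28 to 6.34 in villi and 6.67 to 6.73 in crypts.

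The arrays of a group resembled each other closely, with correlations between 0.9884 and 0.9973. The labels do not state that replicates were separate animals, and p-values measure the spread between these samples, whose number limits the precision. In villi the sex marker Xist read 13.18 in Rb KO 3 and 12.89 and 12.83 in DKO 4 and 5. The other animals read 6.38 to 6.83, so the genotypes were not matched in Xist. With its level as a covariate 1104 genes passed in place of 1326. The tissue labels were borne out by markers: the mean of 9 crypt genes such as Lgr5, Olfm4 and Lyz1 lay between 8.81 and 10.30 in villi and between 12.10 and 12.78 in crypts, and crypt transcripts were thus measured in the villus arrays too. The difference of effects in that crypt score was −0.03, with animals between −0.66 and 0.93 in Rb KO and between −0.35 and 0.45 in DKO, and the score of 8 villus enterocyte markers differed by 0.03. In whole tissue, fewer cells of a type and less RNA per cell cannot be told apart. The log2 difference between the 3′ and 5′ control probe sets of GAPDH, a reading of RNA integrity, had a difference of effects of −0.0700 (exact permutation p = 0.0397, two-sided), and that of Actb one of −0.0316 (exact permutation p = 0.31). When the GAPDH reading entered the fit as a covariate 287 genes passed in place of 1326, and the part of RNA quality in the results was not tested.

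Of the 1326 genes, 857 were higher, which is 5.89% of the genes tested, and 469 were lower, which is 3.22%. Higher genes made up 64.6% of the calls, and 75.3% after each array was centred on its median. The median difference was 0.474 among the higher genes, −0.408 among the lower genes and 0.002 over all genes tested. A difference of at least 2-fold was reached by 45 of the higher and 14 of the lower genes. Without the animal as a block, the same contrast over 20 arrays called 694 genes, 661 of them among the 1326. The count was 637 without DKO 3, 804 without DKO 1, 834 without DKO 4, 873 without Rb KO 3 and 876 without Rb KO 2, and 915 to 1233 without any of the other animals.

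Most of the genes that passed had mean effects of opposite signs in the 2 tissues. This held for 596 of the 857 higher genes (69.5%) and for 371 of the 469 lower genes (79.1%), against 43.9% of all genes tested, and a gene with a large difference is more likely to meet it by construction. Only the sign of each mean counts here, so a gene can meet it with a change in 1 tissue and an effect within its SE in the other. Rrm2 did so with 0.07 ± 0.075 in crypts and Enpp3 with 0.087 ± 0.159 in villi. Among the higher genes 176 had effects of the same sign that were larger in villi and 85 of the same sign that were larger in crypts. Their median effect was 0.294 in villi and −0.163 in crypts, with 772 above Rb KO in DKO villi and 681 below Rb KO in DKO crypts. Among the lower genes the median effect was −0.208 in villi and 0.169 in crypts.

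**Figure D1:**
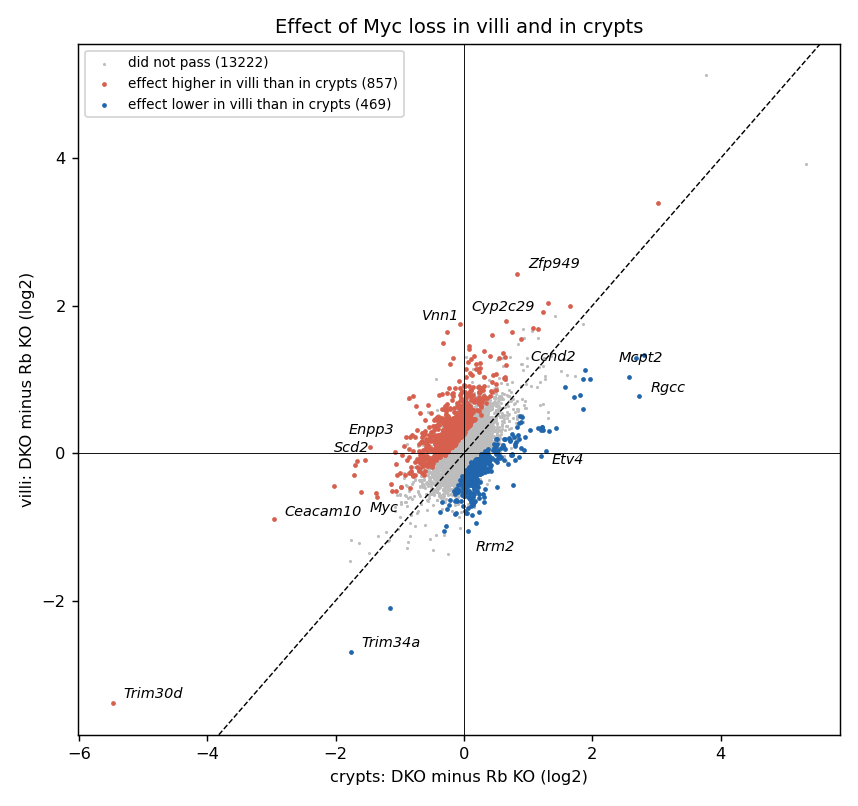
Each point is 1 of the 14548 genes, with the effect of Myc loss in crypts (log2) on the horizontal axis and in villi (log2) on the vertical axis. The dashed line marks equal effects; the 857 red genes above it and the 469 blue genes below it passed the test of the difference.

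Myc was the first gene read, since its own loss checks the labels. It stood at 7.39, 7.42, 6.98, 7.48 and 7.16 in Rb KO villi and at 6.83, 6.49, 6.74, 6.94 and 6.80 in DKO villi. In crypts it stood at 10.60, 11.04, 10.56, 10.21 and 9.98 in Rb KO and at 8.92, 8.67, 9.01, 8.90 and 8.88 in DKO. All 5 DKO arrays lay below all 5 Rb KO arrays in either tissue, by a narrow margin in villi. The effect was −0.52 ± 0.12 in villi and −1.60 ± 0.19 in crypts, and the difference of 1.08 ± 0.16 passed (adjusted p = 0.00303). The crypt arrays thus carried the larger step. Rb1, deleted in every group here, differed by 0.14 ± 0.09 (adjusted p = 0.329). The sources used here do not say if the probes of Myc and Rb1 fall within the exons removed by Cre.

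Of 13 measured genes of the Myc network, which holds Myc itself beside its partners and antagonists, 4 were higher and 1 was lower. The shares were 30.8% and 7.69%, against 5.89% and 3.22% of all genes tested, and the median difference was 0.15. Without Myc 3 of 12 were higher and 1 was lower, with a median of 0.14. Mxi1, which competes with Myc for Max, stood at 10.62, 10.28, 10.90, 10.33 and 10.46 in Rb KO villi and at 10.93, 10.76, 10.71, 10.76 and 10.88 in DKO villi. The crypt arrays read 9.40, 9.17, 9.48, 9.21 and 9.52 in Rb KO and 8.85, 9.24, 8.89, 8.71 and 8.53 in DKO. The arrays overlapped within each tissue, but the villus minus crypt values of the animals did not, and the difference was 0.80 ± 0.14 (adjusted p = 0.00584). The related antagonist gene Mxd3, which is on in dividing cells, went the other way, with an effect of −0.30 ± 0.03 in villi and 0.20 ± 0.12 in crypts and a difference of −0.50 ± 0.12 (adjusted p = 0.0201). That call was lost without DKO 3 (adjusted p = 0.0521), and its adjusted p was at most 0.0851 over all alternatives. The score of the list, which is the mean of its members in an animal, villus minus crypt and relative to the Rb KO mean, lay between −0.04 and 0.04 in Rb KO and between 0.12 and 0.29 in DKO. Without Myc the groups met at 0.03, with Rb KO animals down to −0.06 and DKO animals up to 0.22.

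The genes of division form the largest group on the lower side. Of 77 measured G2/M and mitosis genes 34 were lower and none was higher, against 3.22% lower among all genes tested. All 77 differences were negative, with a median of −0.60, a median effect of −0.53 in villi and one of 0.10 in crypts. The villus effect thus made up most of the difference of the list.

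Mki67, the proliferation antigen Ki-67, stood at 11.14, 10.84, 10.97, 11.50 and 11.34 in Rb KO villi and at 9.58, 10.27, 10.36, 10.69 and 10.84 in DKO villi. In crypts its values were 12.25, 12.29, 12.21, 12.46 and 12.26 in Rb KO and 12.11, 12.25, 12.34, 12.47 and 12.53 in DKO. The villus groups met at 10.84 and the crypt groups overlapped throughout. The difference of effects was −0.85 ± 0.15 (adjusted p = 0.00594). Top2a, the topoisomerase that untangles chromosomes before they part, had 9.88, 9.75, 9.90, 10.56 and 10.41 in Rb KO villi and 8.37, 9.03, 9.16, 9.78 and 9.95 in DKO villi. It showed an effect of −0.84 ± 0.33 in villi and 0.13 ± 0.10 in crypts, and a difference of −0.97 ± 0.19 (adjusted p = 0.0101). Espl1, the separase that cuts the cohesin ring at anaphase, differed by −0.78 ± 0.13 (adjusted p = 0.00517) and Kif23, a kinesin of the dividing cell's midzone, by −0.82 ± 0.16 (adjusted p = 0.00927). Other probe sets gave −0.05 and −0.56 for Kif23 and −0.20 and −0.47 for Top2a. The member with the largest difference that did not pass was the mitotic kinase gene Aurka at −0.78 (adjusted p = 0.0769).

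The animals of the DKO group were spread widely in this list. Their scores were −0.952, −0.753, −0.694, −0.345 and −0.108 for DKO 1 to 5, against 0.020, −0.250, −0.223, 0.162 and 0.292 for Rb KO 1 to 5, so that DKO 5 lay within the Rb KO range. The 34 calls became 55 without DKO 5, 9 without DKO 3, 12 without DKO 1, 13 without Rb KO 4, 14 without Rb KO 5, 15 without DKO 2 and 15 without Rb KO 1. They became 4 without Rb KO 4 and 5 together, 5 without the animal as a block and 0 with the GAPDH reading as a covariate. With that covariate the median of the list was −0.44, and without 1 animal at a time it ranged from −0.71 to −0.51.

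**Figure D2:**
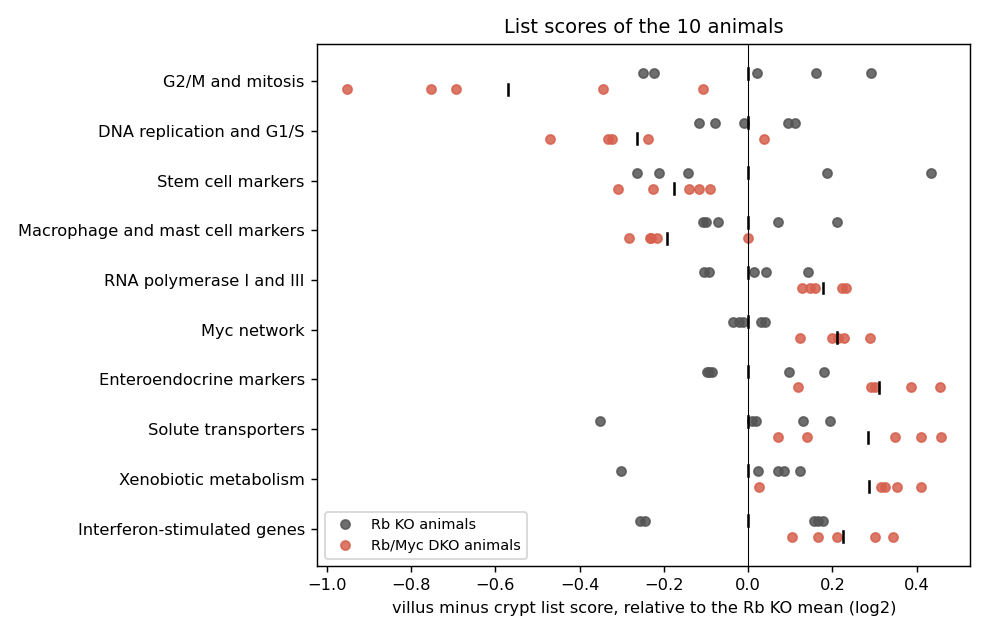
Scores of 10 gene lists in the 10 animals, as the villus minus crypt value relative to the Rb KO mean (log2), with 1 point per animal and a bar at each group's mean. The G2/M scores of DKO reach from −0.95 to −0.11 and meet those of Rb KO, while the Myc network scores, which include Myc itself, are apart.

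DNA replication genes shared the direction at a smaller size. Of 60 measured genes 11 were lower (18.3%, against 3.22% of all genes tested) and none was higher. The median difference was −0.27, with median effects of −0.25 in villi and 0.01 in crypts. Rrm2, the small subunit of ribonucleotide reductase, stood at 11.37, 10.94, 11.03, 11.31 and 11.26 in Rb KO villi and at 9.07, 10.05, 10.23, 10.42 and 10.86 in DKO villi. Its crypt values were 11.42, 11.42, 11.49, 11.51 and 11.55 in Rb KO and 11.27, 11.61, 11.59, 11.64 and 11.65 in DKO. Every DKO villus lay below every Rb KO villus and the crypt groups overlapped, which gave a difference of −1.13 ± 0.20 (adjusted p = 0.00607). The next members by p were Timeless of the replication fork at −0.35 ± 0.08, the primase gene Prim1 at −0.47 ± 0.11 and the polymerase subunit gene Pold3 at −0.32 ± 0.08. Timeless lost its call without Rb KO 2 or 3 or DKO 1, 3 or 4 (adjusted p from 0.0515 to 0.0633), Prim1 without Rb KO 1 or 4 or DKO 1, 2, 3 or 4 (0.0507 to 0.0623) and Pold3 without Rb KO 1 or DKO 1, 3 or 4 (0.0508 to 0.0673). The 11 calls became 21 without DKO 5 and between 1 and 6 without any other single animal, lowest without DKO 1. They became 1 with an index of circadian clock genes as a covariate and 0 with the GAPDH reading.

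In the list of cyclins, CDKs and their inhibitors 5 of 16 genes were lower (31.2%, against 3.22% of all genes tested) and none was higher. The 5 calls became 1 without Rb KO 1, Rb KO 5, DKO 1, DKO 2 or DKO 3, 2 without DKO 4, 3 without Rb KO 3 or Rb KO 4, 0 without the animal as a block and 1 with the GAPDH reading. Ccnd2, a D-type cyclin that activates the kinases acting on Rb, stood higher in DKO in both tissues and by more in crypts. It was at 9.26, 9.65, 9.09, 9.45 and 9.17 in Rb KO villi and at 10.11, 10, 10.44, 10.93 and 10.79 in DKO villi. Its levels in crypts were 11.41, 11.80, 11.22, 11.41 and 11.09 in Rb KO and 13.00, 13.00, 13.33, 13.67 and 13.34 in DKO. The groups were apart in each tissue, and the effect was 1.13 ± 0.21 in villi and 1.88 ± 0.17 in crypts, a difference of −0.76 ± 0.10 (adjusted p = 0.00119). All 7 probe sets of the gene had that sign. Cdkn3, a phosphatase of the mitotic kinase, had a difference of −0.92 ± 0.24 (adjusted p = 0.0316), and its call was lost without Rb KO 1, 4 or 5 or DKO 1, 2, 3 or 4 (adjusted p from 0.0537 to 0.0771). Among 19 genes of E2F factors, pocket proteins and their partners 1 was higher (5.26%, against 5.89% of all genes tested). In that list 2 were lower (10.5%, against 3.22%), and the median was −0.10.

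Promoter sequences of the division genes are shown because their members moved together. In 300-base windows from RefSeq (build GRCm38.p6, 250 bases before to 50 after the start), the letters of the CHR element, TTTGAA or TTCAAA on the other strand, were found in 43 of 66 G2/M genes with a window (65.2%). The share was 70.0% (21 of 30) among the called G2/M genes, 16% among DNA replication genes and 14.8% among all 11660 tested genes with a window. The CHR is known as the site through which the MuvB complexes act on mitotic genes. The lines below give windows from before the start, 5′ to 3′ on the gene's strand, with the CHR letters in capitals. They cover chr7:135716452-135716497 (minus strand) for Mki67, chr11:99024343-99024388 (minus strand) for Top2a, chr15:102296246-102296291 (plus strand) for Espl1 and chr14:46760410-46760455 (plus strand) for Cdkn3.
Mki67: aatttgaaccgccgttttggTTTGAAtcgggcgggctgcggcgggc
Top2a: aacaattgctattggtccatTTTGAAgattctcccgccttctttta
Espl1: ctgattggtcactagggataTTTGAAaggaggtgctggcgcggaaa
Cdkn3: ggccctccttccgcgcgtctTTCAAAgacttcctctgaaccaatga
The Mki67 window holds the letters a further time in its lower-case part. A match describes the letters and does not show that a factor binds there.

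Lists of growth genes that Myc is known to regulate did not share 1 direction. Of 25 measured genes of RNA polymerases I and III, which make ribosomal and transfer RNA, 4 were higher and none was lower. The share higher was 16%, against 5.89% of all genes tested. The median difference was 0.17, with median effects of −0.09 in villi and −0.18 in crypts. Polr1b, the second largest subunit of polymerase I, stood at 7.42, 7.18, 7.15, 7.52 and 7.62 in Rb KO villi and at 7.15, 7.22, 7.34, 7.35 and 7.33 in DKO villi. On crypt arrays the gene read 9.54, 9.55, 9.45, 9.47 and 9.40 in Rb KO and 8.72, 8.73, 8.73, 8.84 and 8.97 in DKO. The crypt groups were far apart and the villus groups overlapped, with effects of −0.69 ± 0.06 in crypts and −0.10 ± 0.10 in villi and a difference of 0.59 ± 0.11 (adjusted p = 0.00806). Polr3e, a subunit of polymerase III, differed by 0.50 ± 0.09 (adjusted p = 0.00599), and Rrn3, which brings polymerase I to its promoters, by 0.40 ± 0.09 (adjusted p = 0.0168). Polr3b passed at 0.55 ± 0.12 (adjusted p = 0.0163), but its other probe sets gave −0.04 and 0.12. The other probe set of Polr3e gave 0.08. The list had 4 to 6 calls without any single animal, 4 without the animal as a block and 0 with the GAPDH reading as a covariate.

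Of 63 measured ribosome biogenesis genes 5 were higher (7.94%, against 5.89% of all genes tested) and none was lower, with median effects of −0.22 in villi and −0.30 in crypts. The share called is near that of all genes, and the 5 calls became 3 without Rb KO 2 or Rb KO 3, 8 without Rb KO 5, 2 with the clock index as a covariate and 0 with the GAPDH reading. Rrp1b, a nucleolar protein, had the largest difference of the called members. It stood at 7.02, 7.29, 6.73, 7.19 and 6.91 in Rb KO villi and at 6.69, 6.48, 6.77, 6.83 and 6.86 in DKO villi. Its crypt values were 8.92, 8.86, 8.70, 8.79 and 8.62 in Rb KO and 7.89, 7.82, 8.01, 8.07 and 8.11 in DKO. The crypt groups were apart and the villus groups overlapped, and the difference was 0.50 ± 0.09 (adjusted p = 0.00714). Other probe sets of Rrp1b gave 0.115 and 0.298. Nol10, of the small subunit processome, differed by 0.40 ± 0.09 (adjusted p = 0.0168) and Tsr1, an assembly factor of the small subunit, by 0.48 ± 0.11 (adjusted p = 0.02).

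Translation factors and synthetases had 2 higher (4.88%) and 1 lower (2.44%) of 41 genes, under the 5.89% and 3.22% of all genes tested. Their median of 0.03 turned to −0.03 after quantile normalization. Eif1a, which helps to scan for the start codon, stood at 9.21, 8.68, 8.99, 9.07 and 8.61 in Rb KO villi and at 9.25, 9.0, 8.97, 8.95 and 9.13 in DKO villi. Crypt values of the gene were 10.45, 10.31, 10.39, 10.24 and 10.26 in Rb KO and 9.78, 9.65, 9.71, 9.87 and 9.78 in DKO. Only the crypt groups were apart, and the difference was 0.72 ± 0.11 (adjusted p = 0.00321). Eif4b, which aids the unwinding of messenger RNA, differed by 0.52 ± 0.11 (adjusted p = 0.0138). In chaperonin and nuclear transport 1 of 33 genes was higher (3.03%, against 5.89% of all genes tested) and 2 were lower (6.06%, against 3.22%). Of the 33 differences 26 were negative, and the median was −0.13 with median effects of −0.26 in villi and −0.12 in crypts. The higher gene was the import receptor gene Ipo4, at 0.56 ± 0.12 (adjusted p = 0.0142), and the lower genes were those of the nuclear pore proteins Nup85 and Nup133, at −0.42 ± 0.08 and −0.52 ± 0.12. Other probe sets gave −0.035 for Nup85 and from −0.46 to 0.03 for Nup133. Of 45 measured cytosolic ribosomal protein genes none passed in either direction, with 36 differences negative, a median of −0.13 and median effects of −0.36 in villi and −0.25 in crypts. None of 47 oxidative phosphorylation genes passed, with a median of −0.03.

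E-box letters were read in the same windows, since Myc and Max bind them. CACGTG, which reads the same on both strands, was found in 11.0% of all tested genes with a window, in 14.1% of the higher genes and in 7.47% of the lower genes. It was in 12 of 54 ribosome biogenesis genes (22.2%), in 3 of the 5 called and in 2 of the 4 called polymerase genes. Genes with negative differences held the letters before their start too, at −1.02 for Tlr1, −0.78 for Espl1, −0.46 for Tnfrsf19 and −0.33 for Aars. So did Mxd4, at 0.36. The lines below give windows of 2 called growth genes and of Ceacam10, a gene with a large positive difference, with the E-box in capitals. They cover chr6:125131803-125131848 for Nop2, chr16:13780631-13780676 for Rrn3 and chr7:24777127-24777172 for Ceacam10, all on the plus strand.
Nop2: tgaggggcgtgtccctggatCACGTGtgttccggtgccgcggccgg
Rrn3: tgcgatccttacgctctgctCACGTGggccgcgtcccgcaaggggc
Ceacam10: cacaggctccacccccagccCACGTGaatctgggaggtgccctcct
Nop2, an RNA methyltransferase of the nucleolus, had a difference of 0.41 ± 0.10 (adjusted p = 0.0221) that lost its call without Rb KO 2 (adjusted p = 0.0502) or Rb KO 3 (adjusted p = 0.0508).

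**Figure D3:**
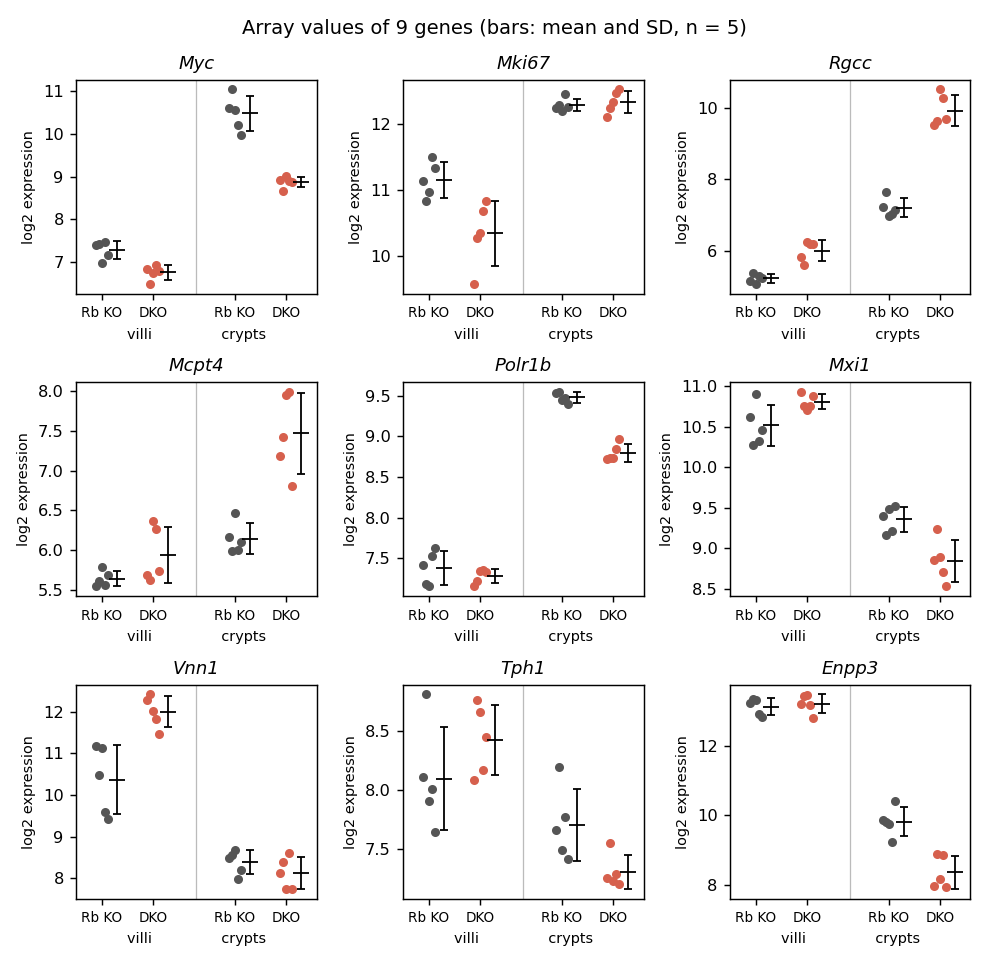
Values of 9 genes on the 20 arrays (log2, axes differ by gene and do not start at 0), with the mean and SD of each group of 5 beside its points. Mki67 values are lower in DKO villi, where the groups meet at 10.84, while the genotypes are apart in crypts for Polr1b, Enpp3 and Mcpt4 and in both tissues for Rgcc, with the larger step in crypts.

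Some lists of the absorbing enterocyte had a larger share of higher calls than all genes tested, and others did not. Lipid absorption and chylomicrons had 2 of 27 genes higher (7.41%) and enterocyte transcription factors 1 of 23 (4.35%), near the 5.89% of all genes tested. None of the 8 villus enterocyte markers passed. Of 36 solute transporters 9 were higher and none was lower (25%, against 5.89% of all genes tested), with median effects of 0.17 in villi and −0.07 in crypts. Slc19a3, the thiamine transporter, stood at 9.60, 9.89, 9.53, 9.57 and 9.10 in Rb KO villi and at 10.24, 10.13, 10.37, 10.22 and 10.07 in DKO villi. In crypts the arrays read 7.69, 8.19, 7.50, 7.42 and 7.60 in Rb KO and 7.41, 7.65, 7.46, 7.25 and 7.34 in DKO. The villus groups were apart and the crypt groups overlapped, with a difference of 0.93 ± 0.13 (adjusted p = 0.00212). Cubn, the cubilin receptor that takes up vitamin B12 bound to intrinsic factor, differed by 1.43 ± 0.26 (adjusted p = 0.00746), with effects of 1.21 ± 0.31 in villi and −0.22 ± 0.40 in crypts. Slc46a1, the folate transporter, differed by 0.90 ± 0.18 (adjusted p = 0.011), with a larger size in crypts (−0.55 ± 0.27) than in villi (0.35 ± 0.15). The 9 calls became 3 to 9 without single animals, lowest without DKO 3 or DKO 4, and 1 without the animal as a block or with the GAPDH reading.

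Of 26 brush border genes 3 were higher (11.5%, against 5.89% of all genes tested) and none was lower. Of the 3, Mep1a passed at 0.59 ± 0.17 (adjusted p = 0.0482) and lost its call without 8 of the 10 single animals. Tmprss15, the enteropeptidase that activates trypsinogen, stood at 9.04, 9.13, 8.94, 8.73 and 8.48 in Rb KO villi and at 10.02, 10.28, 9.83, 10.05 and 9.43 in DKO villi. Every DKO villus lay above every Rb KO villus, and the highest crypt value was 4.91, under the filter value of 5.33. The difference of 0.93 ± 0.13 (adjusted p = 0.00203) thus rests on the villus effect of 1.06 ± 0.19, and its crypt side was read under that value. Enpp3, an ectoenzyme that breaks down extracellular nucleotides, showed the reverse split. It stood at 13.25, 13.35, 13.34, 12.94 and 12.83 in Rb KO villi and at 13.22, 13.46, 13.47, 13.18 and 12.82 in DKO villi. The crypt arrays read 9.88, 9.80, 9.75, 9.24 and 10.43 in Rb KO and 7.97, 8.89, 8.15, 8.86 and 7.92 in DKO. The villus groups overlapped and the crypt groups were apart, with a difference of 1.55 ± 0.24 (adjusted p = 0.00342). All 5 probe sets of Enpp3 had that sign, but the smallest differences among them were 0.086 ± 0.235 and 0.266 ± 0.19.

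Enzymes that handle foreign and fatty compounds also gave mostly higher calls. In xenobiotic metabolism 8 of 37 genes were higher (21.6%) and 1 was lower (2.7%), with a median of 0.25. In fatty acid oxidation and PPAR-alpha targets 5 of 29 were higher (17.2%) and none was lower, with a median of 0.16. Of all genes tested 5.89% were higher and 3.22% lower. Sult1d1, a sulfotransferase, differed by 0.93 ± 0.14 (adjusted p = 0.0031), with effects of 0.28 ± 0.11 in villi and −0.66 ± 0.17 in crypts. Cyp27a1, a mitochondrial sterol hydroxylase, differed by 0.78 ± 0.11 (adjusted p = 0.0025), but its other probe set gave 0.05. Ehhadh, the bifunctional enzyme of peroxisomal beta-oxidation, stood at 11.01, 11.25, 10.87, 10.82 and 11.07 in Rb KO villi and at 11.47, 11.48, 11.49, 11.49 and 11.29 in DKO villi. Its levels in crypts were 10.89, 11.13, 10.92, 10.99 and 11.08 in Rb KO and 10.78, 11.07, 10.69, 10.59 and 10.55 in DKO. The villus groups were apart, the crypt groups overlapped, and the difference was 0.71 ± 0.10 (adjusted p = 0.00233). Slc27a2, a transporter and activator of long-chain fatty acids, differed by 0.59 ± 0.10 (adjusted p = 0.00522). Without single animals the xenobiotic list had 3 to 10 higher calls, lowest without DKO 3, and the fatty acid list 3 to 7, lowest without DKO 1. Without the animal as a block the lists had 1 and 3 higher calls, and with the GAPDH reading 3 and 1.

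The 15 genes with the largest positive differences included further genes of enterocyte enzymes and uptake. Vnn1, a pantetheinase and PPAR-alpha target, stood at 11.19, 10.47, 11.13, 9.59 and 9.43 in Rb KO villi and at 12.29, 12.42, 12.03, 11.84 and 11.46 in DKO villi. On crypt arrays the gene read 8.49, 8.56, 8.68, 7.98 and 8.20 in Rb KO and 8.12, 8.39, 7.75, 8.60 and 7.75 in DKO. The villus groups were apart and the crypt groups overlapped, and the difference was 1.90 ± 0.26 (adjusted p = 0.00203). The cytochrome gene Cyp2c29 differed by 1.81 ± 0.30, the complement component C8g by 1.46 ± 0.16, the fatty acid uptake gene Cd36 by 1.38 ± 0.31 and the protease gene Cym by 1.18 ± 0.17. Tmigd1, a junction protein of epithelia, had a villus effect of 1.41 ± 0.31 and crypt means under the filter value of 5.33, so that no difference is given for it. Sectm1b differed by 1.23 ± 0.23 and the sodium-calcium exchanger gene Slc8a3 by 1.18 ± 0.14. Leaving Tmigd1 aside, these genes had effects in villi between 0.54 for Sectm1b and 1.76 for Cyp2c29 and in crypts between −0.74 for Cd36 and 0.06 for Slc8a3.

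A few of the largest positive differences had negative effects in both tissues, larger in crypts. Ceacam10, a member of the carcinoembryonic antigen family, stood at 6.91, 7.17, 6.18, 7.19 and 6.34 in Rb KO villi and at 5.62, 5.75, 5.11, 6.15 and 6.69 in DKO villi. Crypt values of the gene were 10.65, 10.51, 10, 9.77 and 9.15 in Rb KO and 7.01, 6.15, 5.58, 8.31 and 8.22 in DKO. The crypt groups were apart and the villus groups overlapped, with a difference of 2.07 ± 0.33 (adjusted p = 0.00342), and 1 of the 3 probe sets of the gene showed none (−0.01). Scd2, a fatty acid desaturase, stood at 8.41, 8.42, 9.08, 10.42 and 9.08 in Rb KO crypts and at 7.06, 6.88, 7.21, 8.18 and 7.60 in DKO crypts. Its effect was −1.70 ± 0.43 in crypts and −0.16 ± 0.24 in villi, and the difference was 1.53 ± 0.28 (adjusted p = 0.00653). Acsl6, an acyl-CoA synthetase, had its effect in villi, at 1.45 ± 0.27, with a difference of 1.38 ± 0.19 in its brighter probe set and −0.03 in the other.

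Enteroendocrine markers had the highest median of the 40 lists, 0.35, with 8 of 29 measured genes higher and 1 lower. The shares were 27.6% and 3.45%, against 5.89% and 3.22% of all genes tested. The median effect was 0.33 in villi and 0.02 in crypts. Tph1, the rate-limiting enzyme of serotonin synthesis in enterochromaffin cells, stood at 8.11, 8.81, 7.90, 8.01 and 7.64 in Rb KO villi and at 8.08, 8.76, 8.66, 8.17 and 8.45 in DKO villi. In crypts the arrays read 7.66, 8.19, 7.49, 7.77 and 7.41 in Rb KO and 7.25, 7.55, 7.22, 7.28 and 7.20 in DKO. The groups overlapped in each tissue, but the villus minus crypt values did not, and the difference was 0.73 ± 0.12 (adjusted p = 0.00451). Sst, somatostatin, stood at 10.46, 11.38, 10.20, 10.70 and 10.27 in Rb KO villi and at 10.57, 11.35, 11.32, 11.06 and 11.22 in DKO villi. Its difference was 0.75 ± 0.15 (adjusted p = 0.0122), and that of the granule protein gene Scg2 was 0.69 ± 0.14 (adjusted p = 0.0132). The prohormone processing gene Cpe passed at 0.75 ± 0.13 (adjusted p = 0.00461), but its other probe set gave −0.30. Over 7 endocrine markers used to check cell types, which share members with the list, the score ran from −0.17 to 0.29 in Rb KO and from 0.21 to 0.69 in DKO, and 2 of the 7 were higher. The 8 higher calls became 5 without DKO 3 and 7 to 10 without any other single animal. They became 0 without the animal as a block or with the GAPDH reading as a covariate.

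Of 23 macrophage and mast cell markers 5 were lower (21.7%, against 3.22% of all genes tested) and none was higher. The list as a whole had a median of −0.02 with 11 differences positive and 12 negative. The 5 were Mcpt1, Mcpt2, Mcpt4, Cpa3 and Ms4a2, known as genes of mast cells, a group named here after its values were seen. Mcpt4, a mast cell chymase, stood at 5.55, 5.61, 5.78, 5.56 and 5.69 in Rb KO villi and at 5.69, 5.62, 6.37, 6.27 and 5.73 in DKO villi. The crypt arrays read 6.16, 5.99, 6.46, 6.0 and 6.10 in Rb KO and 7.18, 7.42, 7.95, 7.99 and 6.80 in DKO. Every DKO crypt lay above every Rb KO crypt, and the difference was −1.03 ± 0.13 (adjusted p = 8.4e-04). Cpa3, the mast cell carboxypeptidase, differed by −0.85 ± 0.19 (adjusted p = 0.0162) and Ms4a2, a chain of the IgE receptor, by −0.73 ± 0.14 (adjusted p = 0.00964), with villus means of Ms4a2 under the filter value of 5.33. The DKO minus Rb KO effect on these genes was upward in both tissues and larger in crypts, at 1.22 ± 0.27 against 0.36 ± 0.13 for Cpa3. Mcpt1 and Mcpt2 are among the genes, described below, in which control 1 stood on the Rb KO side of controls 2 to 5. In crypts control 1 read 8.69 and 8.37 in them, against means of 10.96 and 10.50 in controls 2 to 5. What part Myc loss had in these genes was not tested. The count was 5 without any single animal, 3 without Rb KO 4 and 5 together and 1 without the animal as a block or with the GAPDH reading as a covariate.

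Among the other immune lists, MHC class II presentation had 3 of 10 genes higher (30%) and none lower. Interferon-stimulated genes had 4 of 42 higher (9.52%) and 1 lower (2.38%), against 5.89% and 3.22% of all genes tested. Each of these lists had a median of 0.20. T cell markers had 2 of 26 higher (7.69%) and none lower, and their scores overlapped, from −0.39 to 0.23 in Rb KO and from 0.02 to 0.49 in DKO. H2-DMa, which loads peptides onto class II molecules, differed by 0.40 ± 0.09 (adjusted p = 0.0172), with effects of 0.83 ± 0.28 in villi and 0.44 ± 0.28 in crypts, and its adjusted p was 0.54 without the animal as a block. Gbp6, an interferon-induced GTPase, stood at 6.53, 6.28, 6.92, 6.03 and 6.37 in Rb KO villi and at 7.24, 7.14, 7.40, 7.14 and 7.41 in DKO villi. Every DKO villus lay above every Rb KO villus, the crypt effect was 0.10 ± 0.14, and the difference was 0.74 ± 0.15 (adjusted p = 0.0126). Without Rb KO 4 and 5, or without DKO 3, class II and interferon genes had 1 higher call each. The interferon genes had 1 without Rb KO 4 and 2 without Rb KO 5 or DKO 1, and the class II genes 0 without the animal as a block.

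Among the lower genes, Rgcc had the largest difference. Rgcc, named as a regulator of the cell cycle, stood at 5.15, 5.38, 5.06, 5.29 and 5.23 in Rb KO villi and at 5.81, 5.58, 6.24, 6.17 and 6.19 in DKO villi. Its levels in crypts were 7.22, 7.65, 6.97, 7.04 and 7.13 in Rb KO and 9.52, 9.63, 10.53, 10.30 and 9.71 in DKO. The groups were apart in each tissue, with an effect of 0.78 ± 0.14 in villi and 2.74 ± 0.23 in crypts and a difference of −1.96 ± 0.15 (adjusted p = 1.57e-05). Etv4, an ETS transcription factor, differed between the genotypes in crypts, with 7.79, 8.01, 7.47, 7.63 and 7.17 in Rb KO and 8.51, 8.62, 9.0, 9.21 and 8.75 in DKO. Its villus effect was −0.04 ± 0.06 and the difference was −1.25 ± 0.15 (adjusted p = 7.1e-04). Tcf23, a basic helix-loop-helix factor, differed by −1.24 ± 0.18, Ifitm1, an interferon-induced membrane protein, by −1.10 ± 0.18 and Tlr1, a receptor for bacterial lipopeptides, by −1.02 ± 0.19. Sulf2, which trims heparan sulfate, differed by −0.92 ± 0.14, the guidance cue gene Slit2 by −0.90 ± 0.14 and Gp1bb, of the platelet glycoprotein Ib complex, by −0.90 ± 0.11. The crypt effects of the genes in this paragraph lay between 0.80 for Gp1bb and 2.74 for Rgcc, and none of them lost its call without a single animal. Other probe sets gave −0.01 and −0.31 for Slit2, −0.08 for Etv4, −0.13 for 1 of 2 further sets of Sulf2 and −0.39 for Gp1bb. The Rb KO villus means of Rgcc and Tlr1 lay under the filter value of 5.33.

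Signalling lists gave calls in both directions. In BMP and Hedgehog signalling 1 of 24 genes was higher (4.17%, against 5.89% of all genes tested) and 2 were lower (8.33%, against 3.22%). The lower genes, Id1 and Id2, lost their calls without 6 and 8 of the 10 single animals. Bmp2, a ligand that favours differentiation on villi, stood at 9.47, 9.50, 9.40, 9.01 and 8.80 in Rb KO villi and at 8.94, 9.61, 9.37, 9.46 and 9.28 in DKO villi. On crypt arrays the gene read 8.15, 8.04, 8.22, 7.82 and 8.05 in Rb KO and 7.07, 7.50, 7.15, 6.85 and 7.05 in DKO. The crypt groups were apart and the villus groups overlapped, with a difference of 1.03 ± 0.15 (adjusted p = 0.00228). The Wnt and Notch targets had 1 of 29 genes higher, which was Myc itself, and 4 lower (13.8%, against 3.22% of all genes tested). Among the 4 was the Notch target Hey1 at −0.42 ± 0.10 (adjusted p = 0.0222), a call lost without DKO 3 (adjusted p = 0.0605). Hes1 and Ephb3, also among the 4, lost their calls without 8 and 9 of the 10 single animals. Of 20 stem cell markers 3 were lower (15%, against 3.22% of all genes tested) and none was higher. Each of the 3 (Ephb3, Lrig1 and Tnfrsf19) lost its call without 8 or 9 of the 10 single animals. The calls held without Rb KO 1 for Ephb3, without Rb KO 2 for Lrig1 and without Rb KO 1 or DKO 1 for Tnfrsf19. Paneth cell, tuft cell and circadian clock lists had none of 13, 15 and 18 members past the threshold.

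**Figure D4:**
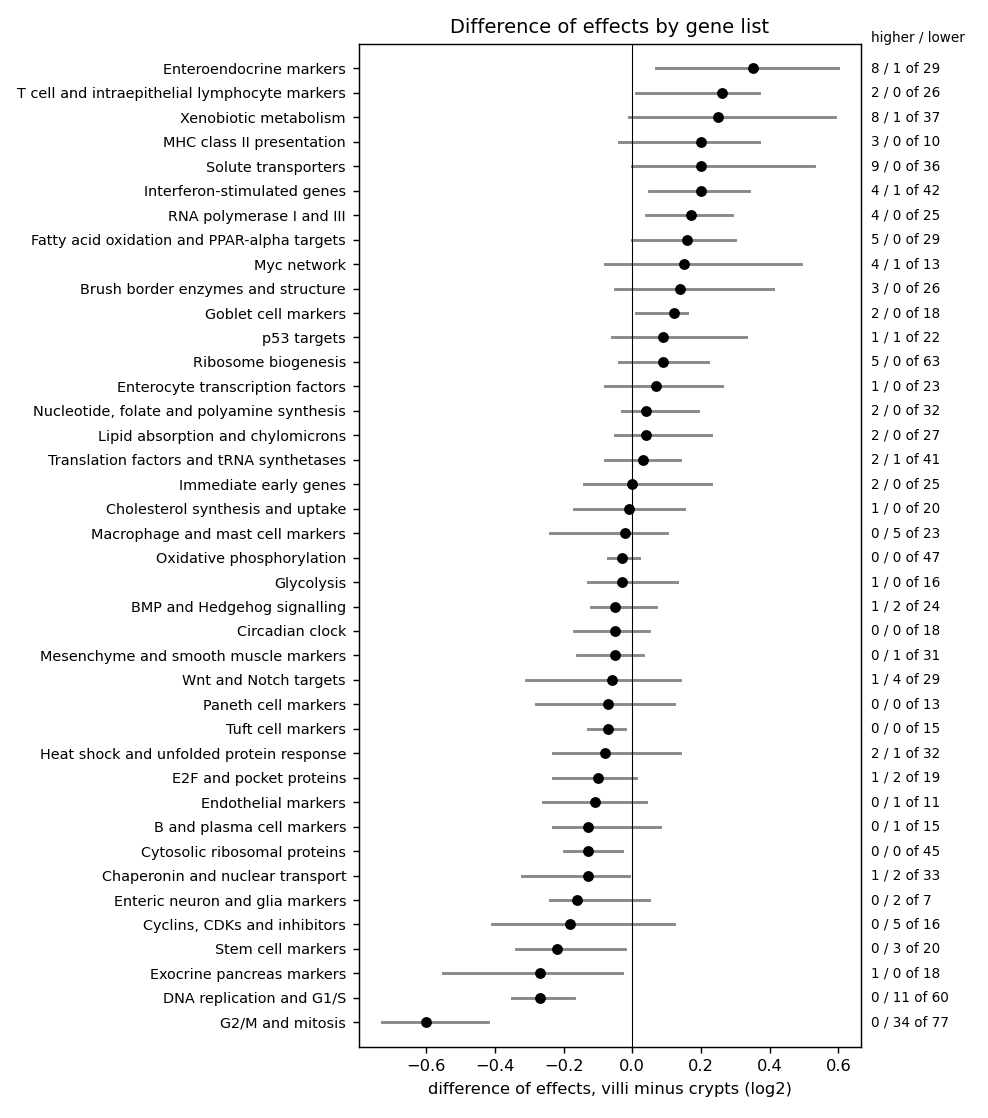
Median (point) and middle range from the 25th to the 75th percentile (line) of the difference of effects, villi minus crypts (log2), over the measured members of 40 lists, with the numbers called higher and lower. G2/M and mitosis stands at −0.60 with 34 of 77 lower, and enteroendocrine markers at 0.35 with 8 of 29 higher.

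In some of the genes with the largest differences, 1 control stood with the Rb KO animals. The series holds 5 control villus and 5 control crypt arrays, which took no part in the comparison. In 28 genes, picked after their values were seen, controls 2 to 5 lay apart from all Rb KO arrays by more than 0.25 in both tissues. Control 1 lay more than 0.25 from controls 2 to 5, on the Rb KO side. It did not have to reach the Rb KO level. For Creld2 in villi it read 9.79, against means of 10.85 in Rb KO and 9.44 in controls 2 to 5. Of these 28, 15 passed the test, 8 higher and 7 lower, among them Trim30d, Zfp949, Trim30a, Trim34a, Stk39, Mcpt1 and Mcpt2. Trim30d, of the TRIM family of immune genes, stood at 11.58, 11.47, 11.60, 11.46 and 11.32 in Rb KO villi and at 8.16, 8.36, 7.99, 8.06 and 7.90 in DKO villi. Crypt values of the gene were 9.90, 9.71, 10.20, 10.04 and 10.42 in Rb KO and 4.36, 4.68, 4.88, 4.54 and 4.48 in DKO. The effects were −3.39 ± 0.09 and −5.47 ± 0.15, the latter with a DKO mean under the filter value of 5.33, and the difference of 2.08 ± 0.16 (adjusted p = 2.01e-05) was the largest of all named genes. Control 1 had 11.54 in villi and 10.17 in crypts, against means of 8.71 and 4.83 in the other controls. The other probe set of Trim30d gave a smaller difference of 0.625 ± 0.148. Zfp949, a zinc finger gene, differed by 1.60 ± 0.13, Trim30a by −0.94 ± 0.18, Stk39 by −0.96 ± 0.19 and Mcpt2 by −1.54 ± 0.29. Other probe sets of Stk39 gave −1.06 and −0.09. Trim34a had −0.94 ± 0.11 in its brighter probe set and 0.78 in the other, and −0.08 (adjusted p = 0.549) as the mean of both. What sets control 1 and the Rb KO animals apart from the rest in these genes was not tested.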

How the data were processed

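The deposited values are log2 expression levels of 45101 probe sets on 30 arrays, and per the labels total RNA was purified and hybridised as biotin-labelled product. How the authors normalized and summarized these log2 values is not given in the sources used here. Between 285 and 596 values were identical in any pair of arrays within a tissue, and at most 1 across tissues, so the tissues were treated as normalized apart. Symbols came from the platform annotation: 34958 probe sets had 1 symbol, 932 several and 9211 none, and 34754 of the named ones were found in a RefSeq gene table. Each of 18194 genes was represented by its probe set of highest mean, and 14548 entered the test, those above the 30th percentile of all probe sets' means (5.33).

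R 4.3.3 and limma 3.58.1 served to fit the contrast on the villus minus crypt value of 10 animals, equal to a 20-array fit with the animal as a block (8 residual degrees of freedom, 5.47 added by moderation). Genes passed at a Benjamini-Hochberg adjusted p under 0.05. Pairing was checked: in all 10 pairs the 2 tissues deviated from their group means together (r from 0.246 to 0.527), and in 9 the best match was the own number. The exception was Rb KO 5 (r = 0.276), which also stands apart in some genes given below. Without this animal 1131 genes passed. The fit was tested on simulated data. Single values were compared by exact permutation.

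The comparison and the 40 lists were chosen with earlier results of these data known. Genes named are Myc and Rb1, the 15 largest in each direction among genes past the threshold whose animals were fully apart and that carry a proper symbol, and the 4 of smallest p in each list with 3 or more calls, of which the text takes fewer. Members of shorter call lists, the control 1 set and the motif letters were picked after values were seen. Alternatives were other blocks, filters, the mean of a gene's probe sets, scalings, covariates, thresholds and sets of animals. Figures were drawn with matplotlib 3.10.9.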

Additional observations from a re-analysis of the deposited data

Results flagged for a closer look

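The effect of Myc loss differed between villi and crypts in 1326 genes by the test of the difference itself. Among 276 groups of 5 animals examined, 13 held an animal whose gap to its nearest neighbour exceeded 0.71 of the group's range. Chance flags about 1 in 20 such groups. In Rb KO, animal 5 stood apart in Cd36 (villus minus crypt value 1.32), Cym (1.75), Enpp3 (2.40) and the xenobiotic metabolism score (−0.30), animal 1 in Acot1 (−1.29) and Pold3 (−0.22), animal 2 in H2-Ab1 (−0.78) and animal 4 in Creld2 (0.22). In DKO, animal 5 stood apart in Hes1 (−1.77) and Prim1 (−0.62), animal 1 in Mep1a (1.80) and the macrophage and mast cell score (0), and animal 2 in the xenobiotic metabolism score (0.03).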

How the results depend on the processing

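None of the 98 genes chosen by the naming rule changed sign under the alternatives, which took the mean of a gene's probe sets but not each probe set alone. Single probe sets of Trim34a, Cpe, Polr3b, Acsl6, Ceacam10, E2f5, Nup133 and Rbl1 had the opposite sign. Of the 98, 69 lost their call with the GAPDH reading and 45 without the block. In place of 1326 genes with a difference of effects, 694 passed without the replicate block, 1542 with a random replicate block, 466 with a clock index as a covariate, 287 with the GAPDH reading, 871 without Rb KO animals 4 and 5, and 281 at an adjusted p under 0.01. Leaving out single animals gave 637 to 1233. With crypt marker scores in the fit 1698 passed, all 1326 included. Quantile normalization within each tissue called 1172 genes, 54.9% of them higher, and centring each array 1332, 75.3% higher. With the mean of all probe sets 3 of the 1326 turned sign. The GAPDH reading ranged from −0.0844 to −0.0552 without single animals and lost its call without Rb KO 1, 2 or 4 or DKO 1, 2 or 3. The clock index, villus minus crypt, ran from −1.162 to −0.758 in Rb KO and from −1.019 to −0.090 in DKO. The cause of these changes was not tested. Array brightness sets no counting limit, and 10 animals limit the precision.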
